A study of Sus scrofa with 22 samples.

Results

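Among 22 jejunal mucosa libraries from pigs, 5 carry a number of 2356 or more in the sample title (2356, 2357, 2358, 2362 and 2366) and 17 carry a number from 2325 to 2349. The first set is called the late libraries here and the second the early libraries. The labels do not say what the number stands for. The late libraries were chosen by their number, at a boundary selected on the gene counts themselves, all genes included, with results of those counts known, so the differences between late and early libraries are given below as a description, with values and standard errors (SE) and with no test.

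The animals were Ossabaw pigs, a breed that readily becomes obese on rich diets, and the tissue was the mucosa of the jejunum, the nutrient-absorbing inner layer of the mid small bowel. Pigs were fed for 6 months, with 38% of energy as fat in every diet. HHD pigs ate a heart healthy pattern, HHD_S pigs ate that pattern with the statin atorvastatin, and WD_S pigs ate a Western pattern with atorvastatin. The statin blocks cholesterol synthesis, and its daily dose was 20 mg over the first 3 months and 40 mg over the next 3 months. Pigs on the heart healthy pattern, with or without the drug, also received 1000 mg fish oil capsules. The series text uses the WD_S abbreviation differently, and the sample labels were followed. Boars and gilts were randomized, 16 of each, and the sex of each pig is not given. The age of the pigs is not used here, and the Western pattern without drug was not analysed here.

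The late libraries were HHD 6 (number 2356), HHD 7 (2357), HHD_S 7 (2358), WD_S 7 (2362) and HHD_S 8 (2366), where the figure after the group only numbers its libraries. The early libraries were 5 HHD, 6 HHD_S and 6 WD_S. Each library belonged to library pool 3 or 4, with 3 late and 10 early libraries in pool 3 and 2 late and 7 early libraries in pool 4. HHD 6, HHD 7 and HHD_S 7 were in pool 3, and WD_S 7 and HHD_S 8 were in pool 4. Late libraries carried the sequencing indices TTAGGC (HHD 6 and WD_S 7), GATCAG (HHD 7) and ACTGAT (HHD_S 7 and HHD_S 8), none of which was used in an early library. Their sample-sheet numbers were 13 to 15, against 1 to 11 in early libraries, and their RNA numbers began at 26620, against a highest early number of 26617. Number, index, sample-sheet position and RNA number therefore cannot be told apart as the marker of the late set, and any difference in collection or handling that goes with them was not tested.

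Unique exon read counts totalled 15.3 M (WD_S 7) to 31.6 M (HHD 6) in late libraries and 17.3 to 25.9 M in early ones, and 13626 genes passed the filter on low counts. Markers of enterocytes, the absorptive cells that define jejunal mucosa, were present in every library. Their summed level was 40406 to 78704 CPM (read counts scaled to a common library size) in late and 28312 to 91102 CPM in early libraries, over 14 of 15 listed genes. The Y-linked genes KDM5D and EIF1AY were above 1 CPM in 3 of 5 late and 7 of 17 early libraries. Over 231 pairs of libraries the reduced chi-square was at least 24.2, so that no pair held the same counts within counting error.

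Interferons are secreted signals that cells release when they sense foreign nucleic acids or when T cells and natural killer cells are activated. Type I interferons act through a receptor and its Janus kinases to switch on antiviral genes such as the MX, OAS and IFIT families. Interferon gamma acts through a receptor of its own to raise chemokines that attract T cells, guanylate-binding proteins and the machinery that loads peptides on class I MHC. The intestinal lining keeps a basal level of both programmes.

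Genes of the type I interferon response were higher in 4 of the 5 late libraries, whose summed levels lay above all 17 early ones. The fifth, HHD 6, lay within the range of all 17 early libraries for 30 of 32 genes but above the 5 early HHD libraries for 19. All 32 measured members of that list had a positive late minus early difference, where 51.8% of all genes were positive and 48.2% negative. Their median log2 difference was 1.75, and that of all 13626 genes 0.01. Genes of the interferon gamma response and of class I MHC loading were higher in HHD 7, HHD_S 7 and WD_S 7. These 3 had 11 or 12 of 17 interferon gamma genes and 10 or 11 of 13 class I loading genes above the early range. HHD_S 8 had 7 and 2, and HHD 6 had 0 of either. The summed levels of HHD_S 8, 1351 and 7670 CPM, lay within the early ranges of 926 to 1718 and 3960 to 8663 CPM. The reading of HHD_S 8 depended on the measure. Its interferon gamma list score, the mean over members of centred log2 CPM, was 0.42, above the early maximum of 0.23. Its class I score of 0.05 was under the early maximum of 0.15. Markers of smooth muscle and fibroblasts were lower in the 4 late libraries other than HHD 6. Fitted over all 22 libraries with diet and pool as terms, 762 of 13626 genes (5.59%) were past an edgeR adjusted p of 0.05. Of these, 422 (3.1%) were higher and 340 (2.5%) lower in late libraries. With libraries scaled by total counts alone the split was 407 higher and 203 lower. The threshold serves here only to describe the size of a difference relative to its error, and since it comes from the contrast by which the libraries were set apart, nothing is read from these shares.

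**Figure D1:**
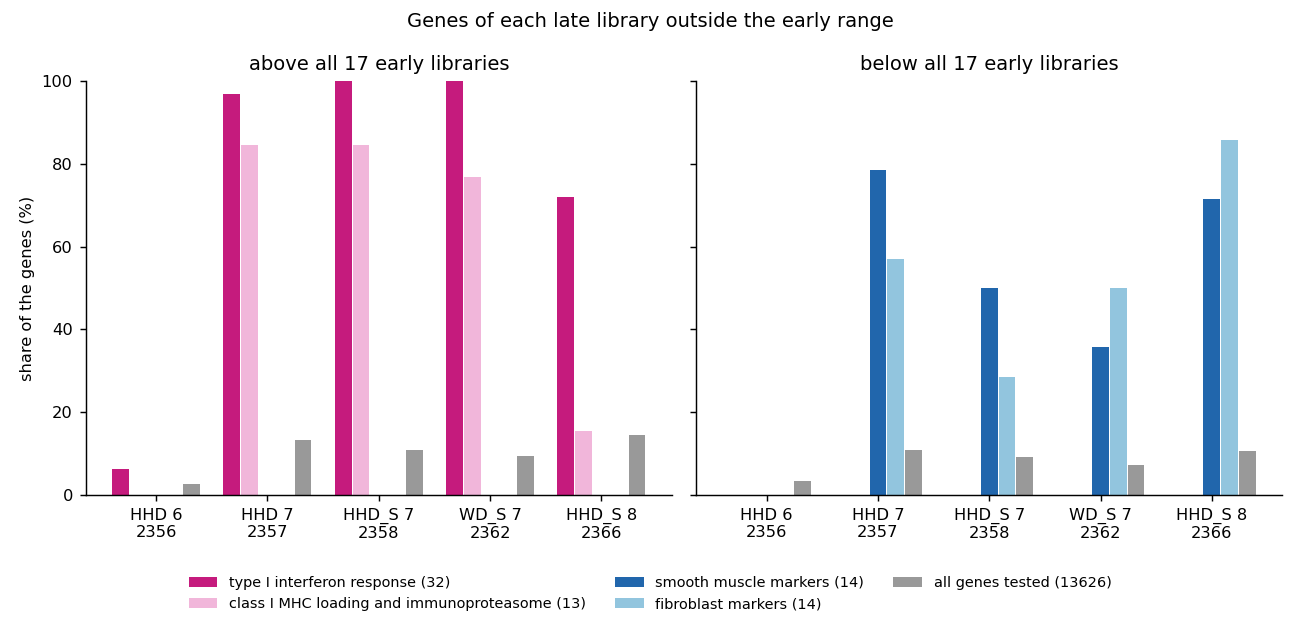
Share of genes (vertical axis, %) whose level in a late library lay above (left) or below (right) all 17 early libraries, for 4 gene lists and for all 13626 genes tested, with list sizes in parentheses. HHD 6 had 2 of 32 type I interferon genes above the early range, and the other 4 late libraries had 23 to 32.

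HHD 6 stood apart from the other late libraries on counts over all genes. It had 2.78% of all genes above and 3.49% below the range of the 17 early libraries. The corresponding shares were 13.3% and 10.9% in HHD 7, 10.9% and 9.2% in HHD_S 7, 9.39% and 7.2% in WD_S 7, and 14.4% and 10.6% in HHD_S 8. Its median Pearson correlation over log2 CPM of all genes was 0.978 with the early libraries and 0.967 with the other 4 late ones. WD_S 7, which carries the same index as HHD 6, had values of 0.966 and 0.975. These correlations are across genes within pairs of libraries and describe likeness only.

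The count of genes past the threshold depended on single libraries. Without HHD 6 it was 2039, of which 1002 were higher and 1037 lower, and 745 of the 762 genes were among them. It was 191 without HHD 7, 229 without WD_S 7, 332 without HHD_S 7 and 536 without HHD_S 8. Leaving out the early library HHD_S 4 gave 1315. Of the 57 named genes, 25 stayed past the threshold in all 22 fits that left out 1 library, among them the 10 largest rises and 4 of the 10 largest falls, and 30 were not past it without HHD 7. At the boundary of the number classes stand the last early library, WD_S 6 (2349), and the first late one, HHD 6 (2356), which differ in diet. IFI6 stood at 15.6 CPM in WD_S 6 and 14.8 CPM in HHD 6, and the summed type I interferon response was 1351 and 1855 CPM.

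HHD 6 was also set beside the 5 early HHD libraries alone, a comparison added after these values were seen, since the early libraries pool 3 diet groups and the list had positive medians between them, given below, with 0 genes past the edgeR test. Its summed type I interferon level of 1855 CPM was above the 1131 to 1477 CPM of those 5 libraries. Its level of IFI6, at 14.8 CPM, was above their 5.31 to 12.8 CPM, and that of MX1, at 25.0 CPM, above their 15.0 to 21.9 CPM. Of the 32 type I interferon genes, 19 were above all 5 early HHD libraries and 0 below, where 15.6% of all genes were above and 17.3% below. HHD 7 had 32 of 32 above the same 5 libraries and a summed level of 4658 CPM. HHD 6 was thus at the upper side of its own diet group, though far below the other late libraries.

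IFI6, an interferon-induced protein of the mitochondria and endoplasmic reticulum (chromosome 6, 84852782 to 84858072, positions here being RefSeq spans on Sscrofa11.1), had a level of 14.8 CPM in HHD 6, 99.9 CPM in HHD 7, 263 CPM in HHD_S 7, 382 CPM in WD_S 7 and 180 CPM in HHD_S 8. Early libraries ran from 5.31 to 46.0 CPM with a median of 12.8 CPM. The log2 difference was 3.57 (SE 0.292), and 3.83 without HHD 6. Every late library but HHD 6 was above every early one. WD_S 4, in pool 4, was the highest early library for IFI6 and also for MX1, MX2, RSAD2 and HERC5.

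MX1, a GTPase that blocks virus replication (chromosome 13, 204843049 to 204868927), stood at 25.0, 120, 190, 370 and 100 CPM in HHD 6, HHD 7, HHD_S 7, WD_S 7 and HHD_S 8, against 15.0 to 85.4 CPM (median 21.9 CPM) in early libraries. Its neighbour MX2 (chromosome 13, 204798633 to 204821612) stood at 19.9, 112, 175, 375 and 125 CPM in the same order, against 16.3 to 67.7 CPM (median 21.6 CPM). RSAD2, the antiviral enzyme viperin, stood at 28.9, 93.3, 158, 525 and 115 CPM, against 9.39 to 91.1 CPM (median 19.5 CPM). In all 3 genes HHD 6 lay within the range over all early libraries, above the early median for MX1 and RSAD2 and below it for MX2. The other late libraries lay above that range, HHD 7 only just so for RSAD2. The log2 differences were 2.64 (SE 0.271), 2.59 (SE 0.291) and 2.63 (SE 0.294).

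HERC5, the ligase that attaches the ubiquitin-like protein ISG15 (chromosome 8, 130532256 to 130591158), stood at 6.48, 67.1, 109, 179 and 64.8 CPM, against 4.09 to 23.2 CPM (median 6.34 CPM). ISG15 itself stood at 16.5, 75.7, 75.8, 256 and 66.9 CPM, against 11.9 to 54.6 CPM (median 16.5 CPM). ISG12(A), a small interferon-induced membrane protein, stood at 241, 528, 612, 912 and 432 CPM, against 35.04 to 258 CPM (median 95.5 CPM). HHD 6 was thus at the median over all early libraries for HERC5 and ISG15 and near the top of the early range for ISG12(A). The log2 differences were 3.50 (SE 0.321), 2.20 (SE 0.249) and 2.47 (SE 0.242).

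The remaining type I interferon genes ran from 0.57 (TRIM25) to 2.39 (OAS2) on the log2 scale. They included the sensors DDX58 (1.58), DHX58 (1.85), IFIH1 (0.79) and ZBP1 (1.73), and the transcription factors STAT2 (0.81), IRF9 (0.90) and IRF7 (1.19). All 32 were past the threshold with every library in the fit and also without HHD 6, when their median was 1.93. With every library in the fit, 5.59% of all genes were past it. Counting the members tested in each fit, 29 were past it without WD_S 7, 31 without HHD 7, and 32 without HHD_S 7 or HHD_S 8. Counts of unique reads leave IFITM3 uncertain, since it has near-identical copies. OASL and IFIT2 did not pass the filter on low counts. OASL had 7 reads in HHD 6, 155 in HHD 7, 260 in HHD_S 7, 407 in WD_S 7 and 61 in HHD_S 8, against 0 to 27 (median 4) in early libraries, and IFIT2 had 2, 35, 16, 18 and 16 against 0 to 7 (median 2).

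**Figure D2:**
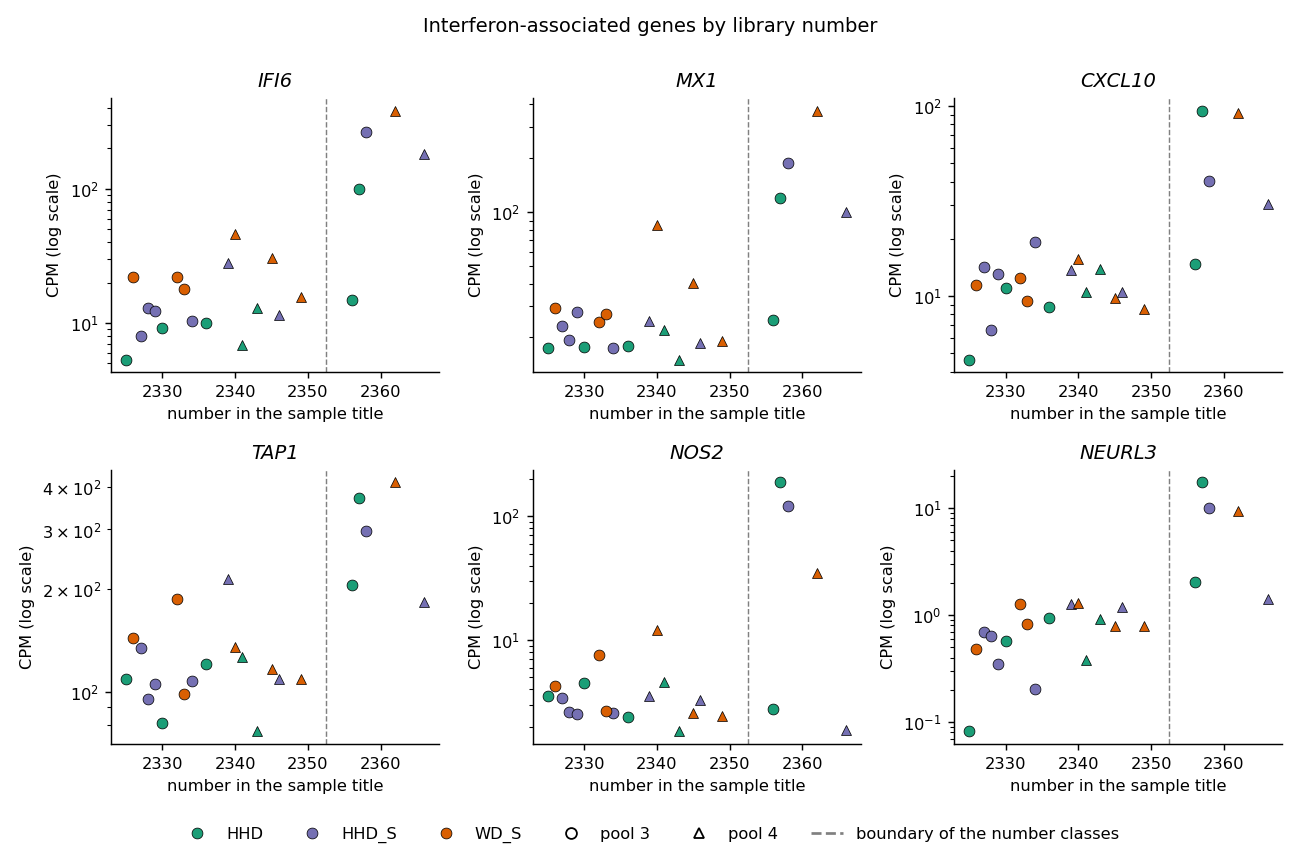
Level of 6 genes (vertical axes, CPM on a log scale) in each of the 22 libraries by the number in the sample title (horizontal axes), coloured by diet group and shaped by library pool, with a dashed line between the number classes. Library 2356 (HHD 6) lies at 14.8 CPM for IFI6, within the early range of 5.31 to 46.0 CPM, and the 4 libraries to its right lie at 99.9 to 382 CPM.

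NEURL3, a ubiquitin ligase (chromosome 3, 46741636 to 46751553), was 1 of 14 genes (0.103% of 13626) whose 5 late values all lay above all 17 early values. It stood at 2.01, 17.3, 9.89, 9.41 and 1.40 CPM in HHD 6, HHD 7, HHD_S 7, WD_S 7 and HHD_S 8, against 0.0817 to 1.30 CPM (median 0.782 CPM). HHD 6 and HHD_S 8 were only just outside the early range, with a log2 difference over all libraries of 3.51 (SE 0.427). Among the other genes of this kind were UBA7, the activating enzyme for ISG15, DDX60, ERAP2, KYNU, FAS, MASTL, ZNF821, AP3S2 and ENPP4, and 3 have no symbol.

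ERAP2, which trims peptides for class I MHC (chromosome 2, 103510425 to 103563482), stood at 108, 201, 159, 188 and 116 CPM in HHD 6, HHD 7, HHD_S 7, WD_S 7 and HHD_S 8, against 72.1 to 94.97 CPM (median 83.0 CPM). HHD 6 was the lowest late library, yet above the early range. The death receptor FAS stood at 22.4, 35.7, 33.4, 31.2 and 28.7 CPM, against 14.2 to 21.4 CPM. AP3S2, part of a vesicle coat complex, stood at 69.9, 73.4, 75.2, 63.7 and 60.2 CPM, against 37.3 to 56.2 CPM, and there HHD 6 was level with the other late libraries. ENPP4, an ectoenzyme, stood at 73.0, 74.2, 69.3, 77.4 and 68.7 CPM, against 43.2 to 65.2 CPM. The log2 differences of AP3S2 and ENPP4 were 0.54 (SE 0.0850) and 0.48 (SE 0.0857).

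Genes that interferon gamma induces were higher in 11 of 17 measured list members past the threshold and lower in 0, with a median log2 difference of 1.18. Among all genes, 3.1% were higher and 2.5% lower past the threshold. CXCL10, a chemokine for activated T cells (chromosome 8, 71693641 to 71695948), stood at 14.8, 94.4, 40.4, 91.7 and 30.7 CPM in HHD 6, HHD 7, HHD_S 7, WD_S 7 and HHD_S 8, against 4.62 to 19.3 CPM (median 11.02 CPM). Its relative CXCL11 stood at 0.478, 6.87, 2.53, 2.65 and 2.10 CPM, against 0.123 to 0.898 CPM. GBP2, a guanylate-binding protein, stood at 34.5, 259, 184, 159 and 55.4 CPM, against 16.4 to 53.5 CPM (median 24.3 CPM). HHD 6 was inside the early range for all 3 genes, and HHD_S 8 was close to the top of it for GBP2. The log2 differences were 2.28 (SE 0.288), 2.72 (SE 0.376) and 2.35 (SE 0.309). CXCL9 (1.69), the immune checkpoint ligand CD274 (2.20) and the feedback inhibitor SOCS1 (1.73) were also among the 11. The receptor chains IFNGR1 (0.17) and IFNGR2 (-0.21) and the kinase JAK2 (0.16) were not.

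A list of interferon ligands, receptors and sensors was added after the values above were seen. IFNG, the gene of interferon gamma, had 26 reads in HHD 6, 85 in HHD 7, 83 in HHD_S 7, 58 in WD_S 7 and 50 in HHD_S 8, against 3 to 38 (median 17) in early libraries. Its log2 difference was 1.84 (SE 0.317), and HHD 6 was the single late library within the early range. IFNB1, the gene of interferon beta, had no read in any of the 22 libraries. IFNE, an interferon of epithelia, had a log2 difference of 0.09 (SE 0.178). Of the 10 other ligand genes in the files, none passed the filter, and 5 of all 12 ligand genes had no read. No gene of interferon lambda was among these 12, so the list of ligands is not complete. Which interferon the type I list reflects was not tested. IFN-DELTA-1, a porcine type I interferon, had 68 reads in HHD_S 8, 0 to 4 in the other late libraries and 0 to 24 in early ones. Of 8 receptor and kinase genes, 0 were past the edgeR threshold in the fit described above, with a median of 0.11. Of 15 nucleic acid sensors and adaptors, 6 were higher and 0 lower past it, where 3.1% of all genes were higher and 2.5% lower. The 6 were CGAS (0.77), TLR8 (0.76) and the type I list members DDX58, DHX58, IFIH1 and ZBP1.

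Of 13 class I MHC loading genes, which cut peptides and carry them to MHC molecules, 8 were higher and 0 lower past the threshold. All 13 were positive, with a median of 0.63. Among all genes, 3.1% were higher and 2.5% lower past the threshold, and 51.8% were positive. TAP1, a chain of the peptide transporter, stood at 206, 372, 297, 413 and 184 CPM in HHD 6, HHD 7, HHD_S 7, WD_S 7 and HHD_S 8, against 76.4 to 214 CPM (median 109 CPM). PSME2, a proteasome activator subunit, stood at 145, 416, 378, 371 and 225 CPM, against 102 to 205 CPM (median 135 CPM). PSMB10, an immunoproteasome subunit, stood at 110, 278, 234, 171 and 138 CPM, against 71.6 to 130 CPM (median 101 CPM). HHD 6 was inside the early range in all 3 genes, and HHD_S 8 was inside it for TAP1. For TAP1, HHD 6 was above the early HHD libraries, the highest of which was HHD 4 at 127 CPM. The differences were 1.32 (SE 0.185), 1.11 (SE 0.178) and 0.83 (SE 0.155). The count of 8 became 6 without WD_S 7, HHD 7 or HHD_S 7 and 10 without HHD 6. Class II MHC genes had 2 of 11 past the threshold, the protease CTSS (0.59) and the factor RFX5 (0.63), with a median of 0.03.

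NOS2, the inducible nitric oxide synthase (chromosome 12, 44174944 to 44219875), had the highest log2 difference of all 13626 genes, 4.14 (SE 0.643). It stood at 2.80 CPM in HHD 6, 188 CPM in HHD 7, 120 CPM in HHD_S 7, 35.1 CPM in WD_S 7 and 1.87 CPM in HHD_S 8, against 1.83 to 12.1 CPM (median 3.28 CPM) in early libraries. Only 3 late libraries were high, the same 3 whose summed interferon gamma and class I MHC loading levels lay above the early ranges. HHD_S 8 was near the bottom of the early range for NOS2. Its type I interferon genes were high, while its summed levels of the other lists just named lay within the early ranges. By list score, its interferon gamma genes were above the early range, at 0.42 against a maximum of 0.23. SPP1, the secreted protein osteopontin, stood at 2.12, 5.98, 7.84, 35.1 and 8.30 CPM, against 0.522 to 7.81 CPM (median 0.830 CPM), so that HHD 6 and HHD 7 overlapped the early range. FBXO39, an F-box protein, stood at 13.3, 88.6, 83.9, 135 and 68.7 CPM, against 8.83 to 23.3 CPM (median 12.8 CPM). The log2 differences of SPP1 and FBXO39 were 2.73 (SE 0.364) and 2.46 (SE 0.220).

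Of 19 NF-kB and inflammation genes, 1 was past the threshold, which 5.59% of all genes passed. It was BIRC3, an inhibitor of apoptosis (chromosome 9, 33003570 to 33020252). BIRC3 stood at 846, 882, 754, 795 and 842 CPM in HHD 6, HHD 7, HHD_S 7, WD_S 7 and HHD_S 8, against 276 to 867 CPM (median 392 CPM). All 5 late libraries were high, HHD 6 included, but the early library HHD_S 4 reached 867 CPM. The difference was 0.89 (SE 0.195). The list's median was 0.07, with CXCL8 at 0.06, TNFAIP3 at 0.26 and PTGS2 at -0.34.

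Markers of immune cells are given beside the 5.59% of all genes past the threshold. Among 22 T and natural killer cell markers, 1 was past it, the granule protease GZMB, and the median was 0.16. The summed level was 823 to 1429 CPM in late libraries and 532 to 1480 CPM in early ones. GZMB stood at 95.6, 190, 300, 306 and 104 CPM, against 42.4 to 229 CPM (median 82.8 CPM), with HHD_S 7 and WD_S 7 above the early range and a difference of 1.17 (SE 0.308). Of 17 B and plasma cell markers, 1 was higher (FCRL1, 0.91) and 0 lower. Of 17 macrophage and dendritic cell markers, the scavenger receptor CD163 was higher (1.41, SE 0.314) while the integrin ITGAX (-0.86, SE 0.161) and the factor SPI1 (-0.57, SE 0.148) were lower. CD163 stood at 14.6 CPM in HHD 6 and 45.1 to 122 CPM in the other late libraries, against 7.24 to 40.6 CPM. The summed macrophage and dendritic level was 696 to 1425 CPM in late and 718 to 1596 CPM in early libraries. The part of immune cell number in the interferon differences was not tested. In whole mucosa, more cells of a type and more RNA per cell cannot be told apart.

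**Figure D3:**
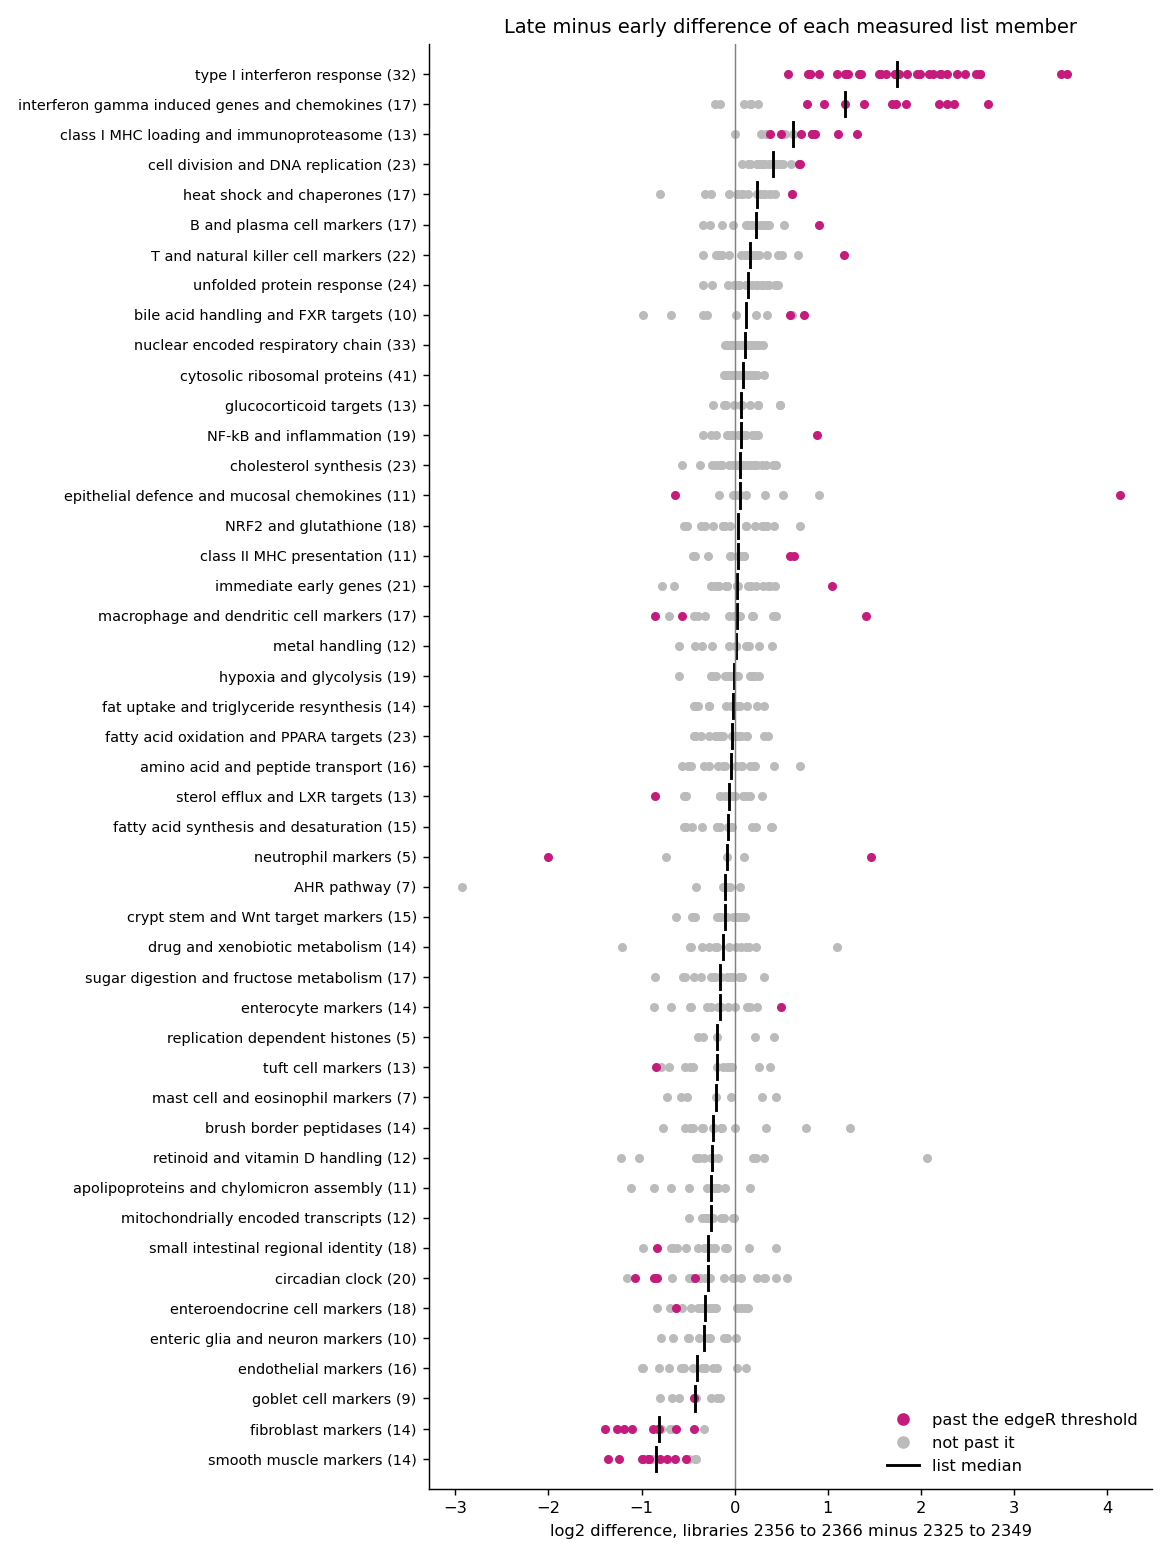
Late minus early log2 difference (horizontal axis) of each measured member of the gene lists with at least 5 tested genes, list sizes in parentheses, ordered by the list median (black line), with members past the edgeR threshold in magenta. The type I interferon response stands at the top with a median of 1.75 and smooth muscle markers at the bottom with a median of -0.84.

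Markers of smooth muscle and fibroblasts, cells of the muscularis mucosae and of the connective tissue under the epithelium, were lower in late libraries. All 14 smooth muscle markers were negative, 10 past the threshold, with a median log2 difference of -0.84. All 14 measured fibroblast markers were negative, 9 past it, with a median of -0.81. Among all genes, 48.2% were negative and 2.5% were lower past the threshold. Summed smooth muscle levels were 1188 CPM in HHD 6, 613 CPM in HHD 7, 720 CPM in HHD_S 7, 716 CPM in WD_S 7 and 579 CPM in HHD_S 8, against 719 to 2012 CPM (median 1306 CPM) in early libraries. Summed fibroblast levels were 2315, 996, 1383, 1365 and 1061 CPM in the same order, against 1601 to 4029 CPM (median 2662 CPM). HHD 6 again lay within the early range, and the other 4 late libraries lay at or under its lower end. The early libraries HHD_S 4 and WD_S 3 were the lowest early ones for these 2 lists, respectively. No tested marker of either list was at 0 in all libraries.

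ACTG2, the gamma actin of enteric smooth muscle (chromosome 3, 69097366 to 69121542), stood at 76.4, 27.5, 36.9, 36.1 and 23.8 CPM in HHD 6, HHD 7, HHD_S 7, WD_S 7 and HHD_S 8, against 53.6 to 145 CPM (median 103 CPM). COL3A1, a fibrillar collagen (chromosome 15, 93556914 to 93595678), stood at 817, 197, 321, 319 and 215 CPM, against 325 to 1422 CPM (median 882 CPM). FN1, the matrix protein fibronectin, stood at 314, 38.6, 85.0, 79.2 and 31.0 CPM, against 78.0 to 697 CPM (median 344 CPM). HHD 6 lay close to the early median for COL3A1 and FN1, and between the early minimum and median for ACTG2. In each gene the other late libraries were below the early range, except HHD_S 7 and WD_S 7 for FN1, which lay at its lower end. The differences were -1.36 (SE 0.229), -1.27 (SE 0.308) and -1.93 (SE 0.446). Without HHD 6 they were -1.64, -1.64 and -2.50.

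The counts for both lists rested on single libraries more than those of the interferon list did. Smooth muscle markers past the threshold numbered 13 without HHD 6, 1 without HHD 7, 4 without HHD_S 7, 5 without WD_S 7 and 5 without HHD_S 8. Fibroblast markers numbered 13, 0, 2, 3 and 2 in the same order. Their medians stayed between -0.74 and -1.05 and between -0.68 and -0.93. Whether the lower stromal markers have a part in the interferon differences was not tested. Endothelial markers had a median of -0.40, with 0 of 16 past the threshold.

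**Figure D4:**
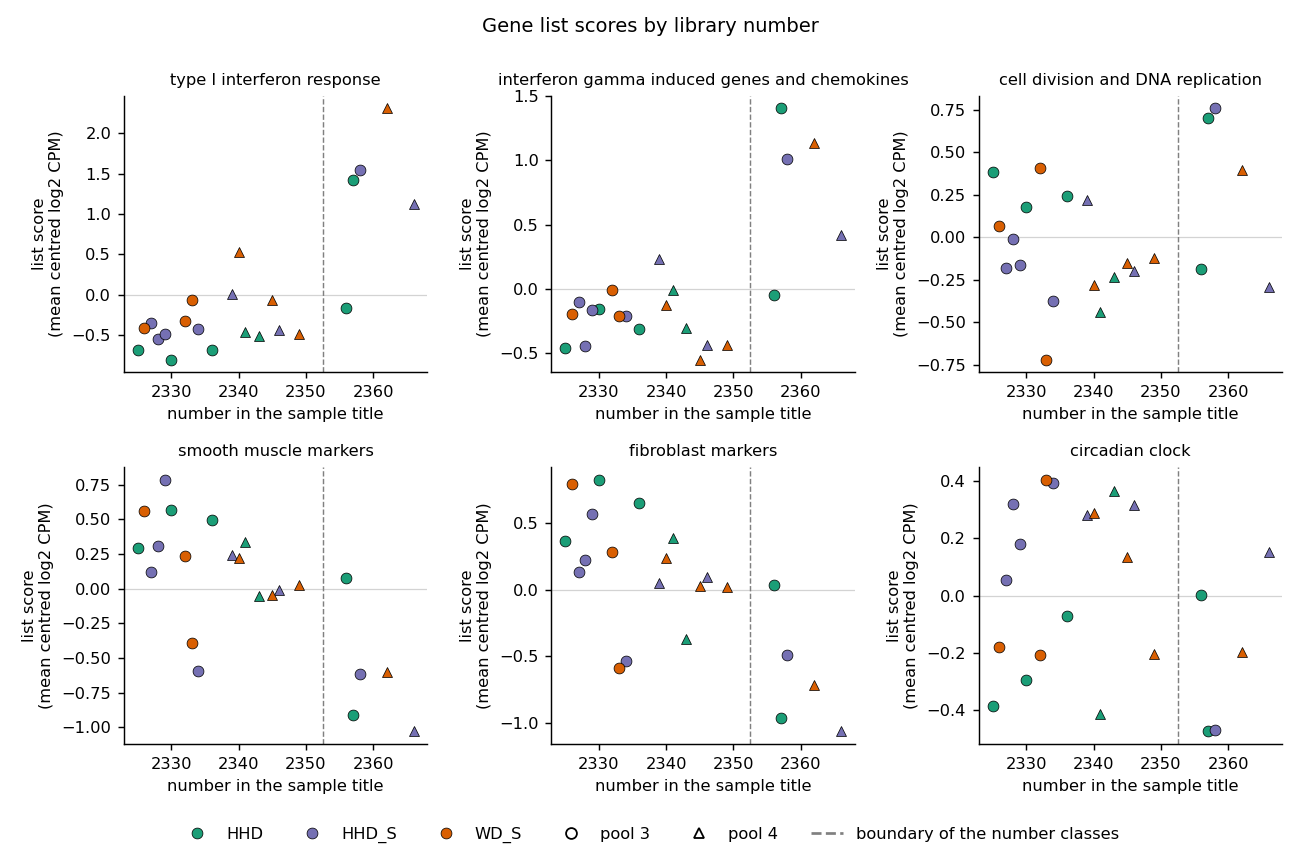
Score of 6 gene lists (vertical axes, mean over members of log2 CPM centred per gene) in each library by the number in the sample title (horizontal axes), coloured by diet group and shaped by library pool, with a dashed line between the number classes. Library 2356 (HHD 6) scores -0.16 for the type I interferon response and 0.07 for smooth muscle markers, and the later libraries score 1.13 to 2.31 and -1.03 to -0.60.

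Among single genes with lower levels, DLEC1, a gene of motile cilia, was the one named fall with all 5 late values below all 17 early values. It stood at 1.54, 0.988, 0.653, 1.13 and 0.746 CPM in HHD 6, HHD 7, HHD_S 7, WD_S 7 and HHD_S 8, against 2.30 to 5.24 CPM (median 2.91 CPM), a difference of -1.68 (SE 0.223). A total of 10 genes (0.0734%) had all late values below the early range, the others with a symbol being CRHR2, SPOCK1, FN3K, PCDH7, HEY2, EPHA7, INVS and LRPAP1. MMP9, a matrix protease of neutrophils, stood at 15.9, 0.445, 2.35, 2.98 and 3.50 CPM, against 4.36 to 45.7 CPM (median 17.4 CPM). HHD 6 lay near the early median, and the others were below the early range, with a difference of -2.00 (SE 0.569). MMP9 was no longer past the threshold in 14 of the 22 fits that left out 1 library, and its differences there ran from -2.96 to -1.72. The other large falls were CFAP65, CCL22, ACTC1, ADGRE3, CPXM1, DPEP2 and FBLN5, at -1.95 to -1.46. In the same 22 fits CFAP65 missed the threshold in 13, CCL22, ACTC1 and DPEP2 in 2 each, and ADGRE3, CPXM1 and FBLN5 in 0.

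Cell division genes had 23 of 23 positive differences, where 51.8% of all genes were positive, and a median of 0.41. The 2 past the threshold, which 5.59% of all genes passed, were the motor KIF11 (0.71, SE 0.181) and the kinase CDK1 (0.69, SE 0.188). Their summed level was 515 CPM in HHD 6, 933 CPM in HHD 7, 955 CPM in HHD_S 7, 757 CPM in WD_S 7 and 497 CPM in HHD_S 8, against 373 to 731 CPM (median 532 CPM). By summed level, HHD 7, HHD_S 7 and WD_S 7 were above the early range and HHD 6 and HHD_S 8 within it. NOS2 divided the late libraries in the same way. By list score, the mean over members of centred log2 CPM, WD_S 7 at 0.40 was just under the early maximum of 0.41. HHD 7, HHD_S 7 and WD_S 7 are also the late libraries with the Y-linked genes KDM5D and EIF1AY above 1 CPM. HHD 6 and HHD_S 8 had 0 CPM of both. With a Y-linked score as a term, the cell division median was 0.39 with 1 of 23 past the threshold, and NOS2 had a difference of 4.03. That term is fitted over early and late libraries together, so it cannot separate sex from this division among the late libraries. Whether sex has a part in the division was not tested. Without the term, the count of 2 became 9 without HHD 6 and 3 without HHD_S 8. It became 0 without WD_S 7, HHD 7 or HHD_S 7.

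Among 20 circadian clock genes, which cycle over the day, 4 were lower and 0 higher past the threshold. Of all genes, 2.5% were lower and 3.1% higher past it. The repressor PER2 stood at 26.8, 9.54, 12.8, 25.1 and 25.2 CPM in HHD 6, HHD 7, HHD_S 7, WD_S 7 and HHD_S 8, against 24.9 to 62.0 CPM (median 43.5 CPM). HHD 7 and HHD_S 7 were below the early range and the other 3 late libraries at its lower end, with a difference of -1.07 (SE 0.224). PER3 (-0.84), HLF (-0.86) and CRY2 (-0.43) were the other 3, and the activator ARNTL had a value of 0.57 (SE 0.270). The list's median was -0.29. The count was 9 without HHD 6, 1 without HHD 7, HHD_S 7 or WD_S 7 and 2 without HHD_S 8. The labels used here give no time of sampling, so its part was not tested.

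Epithelial markers are given beside the same 5.59% of all genes. Enterocyte markers had 1 of 14 past the threshold, the keratin KRT20 (0.50, SE 0.143), and a median of -0.16. Goblet cell markers, of the mucus-making cells, were negative in 9 of 9 with a median of -0.43, and 1 was past the threshold, BCAS1 (-0.44, SE 0.120). Enteroendocrine markers had 1 of 18 past it, the gut hormone PYY (-0.63, SE 0.147), and tuft cell markers 1 of 13, ALOX5 (-0.85, SE 0.158). The mucosal chemokine CXCL14 (-0.65), the intestinal factor CDX1 (-0.83) and the LDL receptor ligase MYLIP (-0.85) were lower, while the bile acid receptor NR1H4 (0.74), the transporter ABCC3 (0.60), the chaperonin HSPE1 (0.61) and the early response factor EGR2 (1.04) were higher. Each of these 7 was past the threshold. In the 22 fits without 1 library, KRT20 missed it in 16, BCAS1 in 8, CDX1 in 6, MYLIP in 16, NR1H4 in 17 and HSPE1 in 14, and the other 5 genes named here in 0 to 3. No unfolded protein response, apolipoprotein or cholesterol synthesis gene was past it by edgeR in this fit, of 24, 11 and 23 tested.

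The 2 library pools hold different pigs and gave separate readings of the same split, neither of them independent of its choice. With pool 3 alone 113 of 13832 genes (0.817%) were past the threshold, and with pool 4 alone 425 of 13818 (3.08%). Of the 113 genes, 98 (86.7%) had the same sign in pool 4, and of 424 of the 425 that were measured in pool 3, 366 (86.3%) had the same sign there. Over all 13686 genes measured in both, 60.6% had the same sign. The 42 genes past the threshold in both pools were 37.2% of the first list and 9.88% of the second. The type I interferon list had a median of 1.72 in pool 3 and 1.86 in pool 4, smooth muscle markers -0.82 and -0.96, and cell division genes 0.44 and 0.21.

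**Figure D5:**
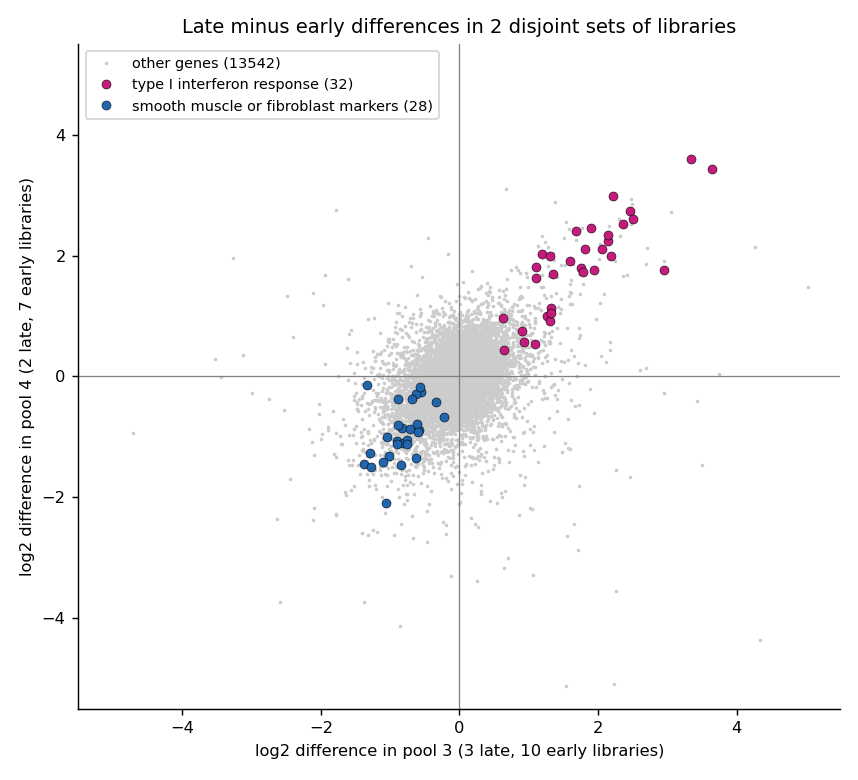
Late minus early log2 difference of each gene in pool 3 (horizontal axis) and in pool 4 (vertical axis), with type I interferon genes in magenta, smooth muscle or fibroblast markers in blue and other genes in grey. All 32 interferon genes are positive and all 28 stromal markers negative in both pools, and 4 other genes lie outside the axes.

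Whether the late minus early difference itself depended on the pool or on the drug was tested by interaction terms, which do not use the overall difference. For the pool, 0 of 13626 genes (0%) passed an edgeR adjusted p of 0.05, with 1415 (10.4%) at an unadjusted p under 0.05. DESeq2 called 35 and limma 1. For atorvastatin, among the 15 libraries of the heart healthy pattern, 0 of 13460 genes passed by edgeR, DESeq2 or limma, with 482 (3.58%) at an unadjusted p under 0.05. With 2 late libraries in each of HHD and HHD_S, this test has little precision. Both late HHD libraries were in pool 3, and the late WD_S library was in pool 4. Dependence on pool, diet and drug therefore cannot be fully told apart, and the medians below are not separate answers. The type I interferon list had a median interaction of 0.01 for the pool and 0.11 for the drug. Interferon gamma genes had medians of -0.23 and -0.22, and class I MHC loading genes -0.23 and -0.10. Cell division genes had -0.19 for the pool, with 19 of 23 negative, and 0.23 for the drug, with 21 of 23 positive. Circadian clock genes had 0.02 for the pool and -0.54 for the drug, with 16 of 20 negative. Smooth muscle markers had -0.11 and -0.30, and fibroblast markers -0.22 and 0.04. In each of these lists 0 genes passed the edgeR test of either interaction.

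A separate test asked whether expression moved with the number inside the 17 early libraries. The split did not use the order within that set, but its boundary was chosen on these same counts. The test is therefore not fully free of that choice. In a fit with diet and pool as terms, 1 of 13678 genes (0.00731%) passed, and 1225 (8.96%) had an unadjusted p under 0.05, while DESeq2 called 15. The gene was ARHGEF10L, with a log2 slope of 1.15 per 10 numbers (SE 0.155, edgeR adjusted p = 0.0144). Its level went from 6.91 CPM in library 2325 to 18.1 CPM in 2336 within pool 3, and from 7.22 CPM in 2339 to 19.8 CPM in 2349 within pool 4. In the late libraries it stood at 13.5 CPM in HHD 6, 10.3 CPM in HHD 7, 8.75 CPM in HHD_S 7, 5.24 CPM in WD_S 7 and 6.53 CPM in HHD_S 8. Within each pool the late values were thus lower than that of the last early library. The call was made in 12 of 17 fits that left out 1 library and was lost without WD_S 6, HHD 1, HHD 3, HHD_S 5 or HHD_S 6, the adjusted p running from 0.00218 to 0.236. It was also lost with total-count scaling (adjusted p = 0.0719), with a Y-linked term (0.788) and without the pool term (0.271).

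Inside the early set the pool followed the number, with libraries 2325 to 2336 in pool 3 and 2339 to 2349 in pool 4. With the pool as a term, the slopes rest on the spread within pools and leave out any step between them. The highest summed type I interferon levels of the early set, in HHD_S 5 (2339, 1931 CPM) and WD_S 4 (2340, 2394 CPM), stood first in pool 4. Within pools, the interferon genes did not climb with the number in the early set. Of 31 type I interferon genes measured there, 25 had negative slopes, with a median of -0.37 per 10 numbers, and 0 passed the edgeR test, with 3 at an unadjusted p under 0.05. Class I MHC loading genes had 13 of 13 negative slopes and a median of -0.34. Smooth muscle and fibroblast markers also had negative slopes, 12 of 14 with a median of -0.37 and 14 of 14 with a median of -0.28, again with 0 past the test. Over all genes the median slope was 0.00.

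Because 1 late library was WD_S and 2 each were HHD and HHD_S, the study's diet comparisons were also fitted with the number class as a term. WD_S against HHD_S had 2 of 13626 genes past an edgeR adjusted p of 0.05 (0.0147%), against 0 without that term and 2 in the 17 early libraries alone. They were ABCG1, a cholesterol exporter of the cell membrane (log2 difference 0.76, SE 0.129, edgeR adjusted p = 0.0445), and ENSSSCG00000027665, which has no symbol. WD_S against HHD had 2 (0.0147%), with 1 higher (0.00734%) and 1 lower (0.00734%), namely ABCG1 (0.86, SE 0.137, edgeR adjusted p = 0.0358) and FADS1, a fatty acid desaturase (-0.77, SE 0.131, edgeR adjusted p = 0.0457). The mean FADS1 level was 10.2 CPM in WD_S, with an SD of 1.43 over 7 libraries, and 16.9 CPM in HHD, with an SD of 3.35 over 7. The count was 1 without the term and 1 in the early libraries alone. HHD_S against HHD had 0 in each of the 3 fits, with 301 genes (2.21%) at an unadjusted p under 0.05 with the term, and DESeq2 and limma called 0.

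Values of the interferon genes in these comparisons differed with and without the number class as a term. For WD_S against HHD the type I interferon list had a median of 0.57 with the number class as a term, 0.37 without it and 0.42 in the early libraries alone. For WD_S against HHD_S the values were 0.33, 0.16 and 0.18, and for HHD_S against HHD 0.23, 0.18 and 0.27. These 3 comparisons share groups, and 0 list members passed the edgeR test in any of the 9 fits. For WD_S against HHD, 19 of the 32 members had an unadjusted p under 0.05 with the term, where 3.13% of all genes did. The count was 0 of 32 without the term and 16 of 31 in the early libraries alone. The number class was chosen on these same counts and takes up spread in these genes, as does leaving the late libraries out. List members also vary together, so these counts are no test of diet and nothing is read from them.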

How the data were processed

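Per the file headers, each deposited file holds unique exon read counts for 24358 genes. Per the labels' protocols, the authors made TruSeq version 2 libraries from RNA with a quality indicator over 8, sequenced them on a NextSeq 500 as single 150-base reads and used a CLC workbench. The submitters' processing notes name Sscrofa11.1. How reads were mapped is not given in the sources used here, and unique counts leave out reads that fit several places equally. Symbols came from the files (17332) and a gene name table (1073), and 5953 genes stayed unnamed.

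With edgeR 4.0.16 in R 4.3.3, genes with low counts were dropped by filterByExpr at its minimum count of 10 with groups from the diet label, libraries were TMM-scaled and robust quasi-likelihood models were fitted, with Benjamini-Hochberg adjustment over all genes. Diet label, library pool and number class were additive terms (17 residual degrees of freedom, biological coefficient of variation 24%). The fit was tested on simulated data. DESeq2 1.42.0 and limma 3.58.1 with quality weights were alternatives, beside other scalings, filters, terms and subsets. P-values measure the spread between these samples.

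The late libraries and the 51 gene lists (50 with tested members) were chosen with earlier results of these data known. Named genes were the 10 largest rises and 10 largest falls past the threshold that have a symbol, a mean log2 CPM of 1 or more and 1 sign in both pools, up to 3 members per list by smallest p, and up to 5 genes per further test. Other list members, genes named for non-overlap and ENSSSCG00000027665 were named after their values were seen. Some genes are not reported here.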

Additional observations from a re-analysis of the deposited data

Results flagged for a closer look

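PYY, an enteroendocrine hormone gene, was checked among 57 genes and 8 gene lists for a late library far from the other 4. HHD 7 was the lowest of the 5, at 12.257 CPM, with the next library at 20.2 CPM. On the log2 scale the gap was 0.84 of the range, above the critical value of 0.71 for 5 libraries. It was 1 of 65 checked values, where chance alone gives about 1 in 20. HHD 6 was not flagged as lowest in any of them.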

How the results depend on the processing

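The 762 genes past the threshold between late and early libraries became 1207 with DESeq2, 3304 with limma and quality weights, 113 in pool 3 alone, 425 in pool 4 alone, 130 in HHD and HHD_S alone and 72 with a fold minimum of 1.5, and ran from 191 (without HHD 7) to 2039 (without HHD 6) when 1 library was left out, with 229 without WD_S 7, 332 without HHD_S 7 and 1315 without HHD_S 4. The other scalings, filters and terms gave 584 to 918. The pool interaction had 0 genes by edgeR, 35 with DESeq2, 1 with limma and 0 to 2 with 1 library left out. The drug interaction and HHD_S against HHD stayed at 0 in every fit run. The trend within early libraries had 1 gene, 15 with DESeq2, 2 without a filter, 0 with total counts, a Y-linked term or no pool term, and 0 to 2 with 1 library left out. WD_S against HHD_S had 2 genes, 6 with DESeq2, 0 with total counts or without the number class and 0 to 2 with 1 library left out. WD_S against HHD had 2, 6, 0 with total counts, 1 without the number class, 1 in early libraries alone and 0 to 2. The causes of these shifts were not tested, beyond the fewer libraries in subsets. The 57 named genes kept their sign in all 2049 gene values computed under alternatives, and 345 of these missed the threshold. Those genes were named for passing the threshold, and the largest rises and falls also for having the same sign in both pools. The alternatives reuse the libraries of the main fit. The kept signs therefore follow in part from the choice of genes and are no independent check. Of 1799 list medians, 29 moved by more than their spread, and none of these was in the type I interferon, smooth muscle or fibroblast list. The files used here hold unique exon reads alone, so total exon reads and tests of mapping shares were not run. No paired analysis was possible because the replicate numbers follow accession order and tie no libraries together. With 5 late libraries, 1 of which lies far from the other 4 in type I interferon genes, single libraries set most counts, and genes near 1 CPM rest on few reads.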
